A study of Mus musculus with 7 samples.

Results

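The genes described here are 9 apolipoprotein genes, Apoa1, Apoa2, Apoa4, Apoa5, Apob, Apoc1, Apoc2, Apoc3 and Apoe, together with Mttp, which encodes the microsomal triglyceride transfer protein. They were taken by symbol, all 10 were among the 23347 genes in the liver count table, and all 10 were among the 15179 that passed the filter on low counts. Their NCBI gene identifiers were 11806 for Apoa1, 11807 for Apoa2, 11808 for Apoa4, 66113 for Apoa5, 238055 for Apob, 11812 for Apoc1, 11813 for Apoc2, 11814 for Apoc3, 11816 for Apoe and 17777 for Mttp. Bulk RNA was sequenced from the livers of 7 male mice on a C57BL/6 background, 1 library per mouse, to ask what loss of the β-1,4-galactosyltransferase gene B4galt1 in hepatocytes changes in a steatotic liver. All 7 mice had received a high-fat diet without choline, with amino acids in free form (CDAHFD), for 15 weeks from an age of 6 to 8 weeks. The control group was 4 B4galt1 flox/flox littermates, which the labels call WT although both alleles are floxed. The other group was 3 mice labelled as hepatocyte knockouts, B4galt1 hep-/-, made with Cre under the albumin promoter, so that the deletion was directed to albumin-expressing cells. Neither a chow-fed group nor an Alb-Cre group without floxed alleles was analysed here.

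Apolipoproteins are the protein coat of the particles that carry triglyceride and cholesterol in plasma, and the liver secretes most of them. Very-low-density lipoprotein (VLDL) is built on a single large Apob molecule that Mttp loads with lipid in the endoplasmic reticulum, whereas Apoa1 and Apoa2 are the main proteins of high-density lipoprotein (HDL). Apoc1, Apoc2, Apoc3 and Apoa5 set how fast lipoprotein lipase removes triglyceride from the particles, and Apoe is the ligand by which receptors on hepatocytes take up their remnants. Choline deficiency limits phosphatidylcholine synthesis and with it VLDL secretion, which is one reason why this diet loads the liver with fat.

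The targeted gene was examined first. B4galt1 stood at 48.7, 53.0, 49.2 and 51.6 CPM (counts scaled to library size, with the trimmed mean of M values, TMM) in B4galt1 flox/flox mice 1 to 4, and at 28.4, 23.9 and 53.7 CPM in the mice labelled B4galt1 hep-/- 1 to 3, a log2 fold change of -0.52 that was not called (edgeR adjusted p = 0.181). Mice 1 and 2 of the labelled group lay below every control, and mouse 3 lay above every control, so that the third library goes against its label and the fold changes, ratios and marker-relative values below were also computed without it. The total count was 37838654 to 39668509 per library in the controls and 30608271 to 34586588 in the labelled livers. The 13 mitochondrially encoded genes took 3.88 to 7.996% of all counts in the controls and 14.4 to 22.6% in the labelled livers. All 12 hepatocyte markers were detected in every library, with a summed level of 94225 to 136572 CPM in the controls and 93533 to 160636 CPM in the labelled livers. Nothing in the labels pairs mice across groups.

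Apoc1 and Apoc3 were higher in the livers labelled B4galt1 hep-/-, and none of the 10 genes was called lower. A gene was called when the adjusted p of edgeR's quasi-likelihood test was under 0.05 and the absolute log2 fold change was over 0.58. By this rule 2 of the 10 genes were called higher, where 8% of all genes tested were called higher, 7.83% lower and 15.8% in either direction. At an unadjusted p under 0.05 edgeR gave 4 of the 10 higher and 0 lower, against 16.8% and 16.1% of all genes tested, and DESeq2 called 4 higher and 0 lower, against 11.3% and 10.3%. In 3 genes, Apoa1, Apoc1 and Apoc3, the 3 labelled livers all lay above the 4 controls, a separation shown in this direction by 13.6% of all genes tested, in the other by 15% and in either by 28.6%. The median log2 fold change of the 10 genes was 0.34 against 0.02 over all genes tested, and it ranged from -0.56 for Apob to 1.18 for Apoc3. In bulk liver, fewer hepatocytes and less RNA per hepatocyte cannot be told apart. The plot of each gene by liver shows these 10 genes relative to the controls.

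**Figure D1:**
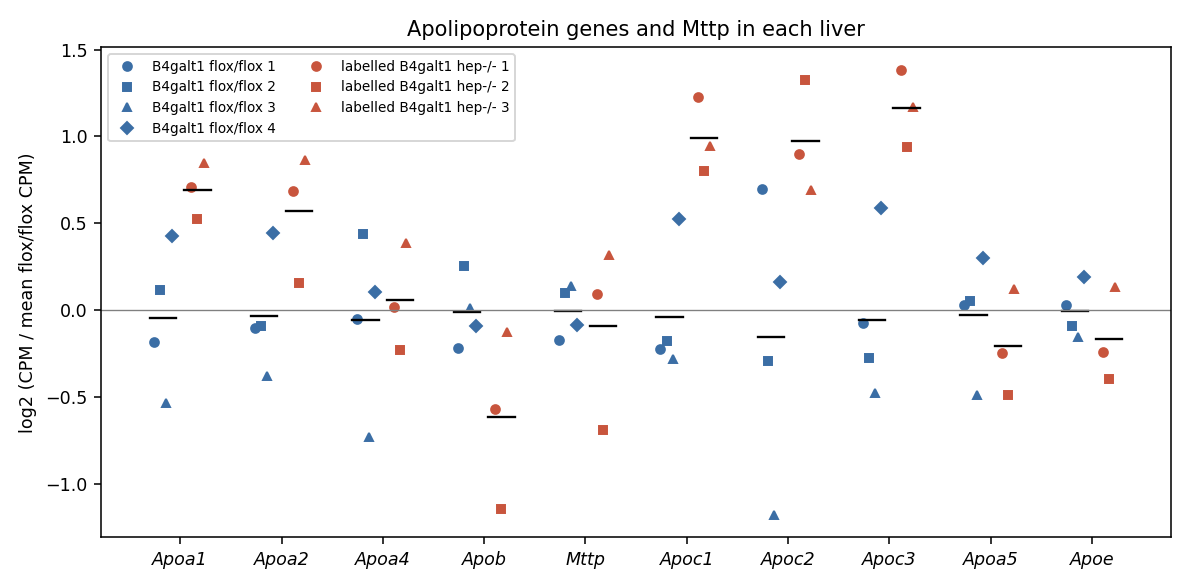
Level of each of the 10 genes in each liver, as the log2 of its CPM over the mean CPM of the 4 B4galt1 flox/flox mice; each symbol is 1 mouse and each bar the mean of the log2 values of a group. The 3 labelled livers lie above all 4 controls for Apoa1, Apoc1 and Apoc3, and the groups overlap for the other 7 genes.

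Apoa1, the main structural protein of HDL and the activator of lecithin-cholesterol acyltransferase, stood at 9148, 11223, 7168 and 13927 CPM in the controls and at 16938, 14905 and 18641 CPM in the labelled livers. The lowest labelled liver lay above the highest control. Its log2 fold change was 0.70 (SE 0.28), with a 95% interval of 0.08 to 1.32, and it was not called by edgeR (adjusted p = 0.109). DESeq2, the tool the study used, called it by its Wald test, with a log2 fold change of 0.71 and an adjusted p of 0.0228. Without labelled mouse 3 the log2 fold change was 0.61, with an edgeR adjusted p of 0.172.

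Apoa2, the second protein of HDL, stood at 4029, 4053, 3326 and 5873 CPM in the controls and at 6944, 4809 and 7872 CPM in the labelled livers. Control mouse 4 lay above labelled mouse 2, so the groups overlapped. This difference was 0.60 on the log2 scale (SE 0.28), with an edgeR adjusted p of 0.156, and without labelled mouse 3 it was 0.44. Apoa4, which is carried on HDL and on triglyceride-rich particles, stood at 3861, 5431, 2417 and 4309.9 CPM in the controls and at 4056.5, 3413 and 5227 CPM in the labelled livers. The 3 labelled values all lay inside the control range. Its log2 fold change was 0.08, with a 95% interval of -0.57 to 0.73, and it was -0.11 without labelled mouse 3.

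Apob, the scaffold of VLDL and of low-density lipoprotein, had the lowest log2 fold change of the 10 genes. It stood at 4195, 5814, 4933 and 4588 CPM in the controls and at 3286, 2206 and 4467 CPM in the labelled livers. Labelled mice 1 and 2 lay below every control, and mouse 3, the one whose B4galt1 level goes against its label, lay within the control range. Its log2 fold change was -0.56 (SE 0.28) with an edgeR adjusted p of 0.188. Without labelled mouse 3 it was -0.84, with an adjusted p of 0.0608 in the same test, and without labelled mouse 2 it was -0.33 (adjusted p = 0.426). On FPKM values (fragments scaled by gene length and by library size), where the median gene shifted by -0.12, limma called Apob lower among expressed genes with a log2 difference of -0.73 (adjusted p = 0.0211 on log2(FPKM + 1)), but did not call it over all genes above 0, where the difference was also -0.73 (limma adjusted p = 0.0724).

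Mttp, the chaperone that transfers triglyceride onto nascent Apob, stood at 157, 189, 194 and 167 CPM in the controls and at 189, 109.8 and 220.2 CPM in the labelled livers. The labelled livers held both the lowest and the highest value of the 7. On the log2 scale the difference was -0.03, with a 95% interval of -0.56 to 0.49. It was -0.25 without labelled mouse 3 and 0.21 without labelled mouse 2.

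Apoc3, the inhibitor of lipoprotein lipase and of remnant clearance, rose most among the 10 genes in the fit on all 7 libraries. Without control mouse 1 its log2 fold change was 1.15, below the 1.33 of Apoc2. Apoc3 stood at 1091, 947, 826 and 1728 CPM in the controls and at 2997, 2202 and 2586 CPM in the labelled livers. All 3 labelled livers lay above the highest control, mouse 4. The log2 fold change was 1.18 (SE 0.28), a 2.26-fold difference, with an edgeR adjusted p of 0.0183. It was 1.17 without labelled mouse 3 (adjusted p = 0.0320 in edgeR). The call was lost in edgeR without control mouse 2 (adjusted p = 0.0676), without control mouse 3 (0.0509) and without labelled mouse 1 (0.0549), with log2 fold changes of 1.09, 1.05 and 1.05.

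Apoc1, an inhibitor of lipoprotein lipase and of remnant uptake, stood at 1456.5, 1503, 1396 and 2442 CPM in the controls and at 3984, 2956 and 3268 CPM in the labelled livers. Again all 3 labelled livers lay above control mouse 4, which stood apart from the other 3 controls. Its log2 fold change was 1.001 (SE 0.26), a 2.002-fold difference, with an edgeR adjusted p of 0.0263. It was 1.02 without labelled mouse 3 (adjusted p = 0.0383 in edgeR). The call was lost in edgeR without control mouse 1 (adjusted p = 0.0575), control mouse 2 (0.0878), control mouse 3 (0.0699) or labelled mouse 1 (0.0812), with log2 fold changes of 0.94, 0.95, 0.92 and 0.86.

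Apoc2, the cofactor that lipoprotein lipase needs, had few counts, 125 to 467 per control library and 326 to 550 per labelled library. Its level was 10.74, 5.42, 2.93 and 7.43 CPM in the controls and 12.4, 16.6 and 10.72 CPM in the labelled livers, and control mouse 1 and labelled mouse 3 met at the edge of the groups. Its log2 fold change was 0.996 (SE 0.36) and was not called by edgeR (adjusted p = 0.0804), while DESeq2 called it with an adjusted p of 0.0341. In edgeR it was called without control mouse 1 (log2 fold change of 1.33, adjusted p = 0.0250) and with a filter of at least 1 count in any library (0.97, adjusted p = 0.0305). Its value is uncertain, because 79.5% of the exon bases of Apoc2 in the GENCODE annotation of GRCm38 also belong to Gm44805, a gene on the same strand that runs from Apoc4 into Apoc2. A counter that sets aside reads shared by overlapping genes can lose such reads, and Gm44805 was not analysed here. Apoc4, which shares 4.69% of its exon bases with the same gene, had 11703 to 29874 counts per library.

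Apoa5, which raises lipoprotein lipase activity and opposes Apoc3, stood at 1883, 1907, 1314 and 2264 CPM in the controls and at 1556, 1311 and 2004 CPM in the labelled livers. The groups overlapped, with labelled mouse 2 and control mouse 3 at nearly the same low value. Its log2 fold change was -0.18, with a 95% interval of -0.74 to 0.37, and it was -0.37 without labelled mouse 3, -0.05 without labelled mouse 2, -0.07 without control mouse 4 and -0.31 without control mouse 3. Apoe, the ligand for remnant uptake, stood at 17109, 15723, 15063 and 19167 CPM in the controls and at 14175, 12744 and 18399 CPM in the labelled livers. Labelled mice 1 and 2 lay below every control and mouse 3 lay near the highest. On the log2 scale the difference was -0.15, with a 95% interval of -0.72 to 0.42, and it was -0.33 without labelled mouse 3, -0.04 without labelled mouse 2 and -0.08 without control mouse 4. Apoe is also made by macrophages, and 7 of 12 macrophage and Kupffer cell markers were called lower (7.83% of all genes tested), with a summed level of 1576 to 3565 CPM in the controls and 753 to 853 CPM in the labelled livers; their part in the Apoe value was not tested.

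Within a group, the 10 genes tended to be high or low in the same liver. Control mouse 3 was the lowest of the 4 controls for 8 of the 10 genes and control mouse 4 the highest for 6. Labelled mouse 2 was the lowest of its group for 9 genes and labelled mouse 3 the highest for 7. The TMM factors of labelled mice 1 to 3 were 0.904, 1.08 and 0.879, and the ranks depended on this scaling. On FPKM labelled mouse 2 was the lowest of its group only for Apoa2, Apob and Mttp, and labelled mouse 1 was for Apoa1, Apoa4, Apoa5 and Apoe. The coefficient of variation was 10.1% in the controls and 32.9% in the labelled livers for Mttp, 10.8% and 19.5% for Apoe, and 14.1% and 34.1% for Apob. It was 34.97% and 15.3% for Apoc3, and 49.8% and 22.9% for Apoc2, the gene with the fewest counts.

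Levels were compared between genes only per length, on FPKM. Apoa1 was the highest in the controls at 10751 ± 2230.4 FPKM (SD, n = 4), followed by Apoe at 7123 ± 700.5, Apoa2 at 4743 ± 871, Apoc1 at 3143 ± 667, Apoa4 at 2477 ± 707 and Apoc3 at 1577 ± 445. Apoa5 (751 ± 134), Apob (363 ± 47.9), Mttp (38.6 ± 4.71) and Apoc2 (8.56 ± 4.76) followed. The ranges over the 4 controls overlapped between Apoa1 and Apoe, between Apoa2 and Apoc1, between Apoc1 and Apoa4 and between Apoa4 and Apoc3, and the other neighbours in this order did not overlap.

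In the labelled livers the order was Apoa1 at 16141 ± 571 FPKM (SD, n = 3), Apoa2 at 6555 ± 923, Apoe at 5846 ± 708, Apoc1 at 5822 ± 658, Apoc3 at 3292 ± 304, Apoa4 at 2393 ± 317 and Apoa5 at 605 ± 79.5. Apob (222 ± 55.6), Mttp (33.8 ± 8.02) and Apoc2 (15.8 ± 5.55) came last, as in the controls. Here Apoa2, Apoe and Apoc1 overlapped one another in turn, and Apoc3 lay above Apoa4 in all 3 livers, whereas Apoa4 lay above Apoc3 in all 4 controls.

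**Figure D2:**
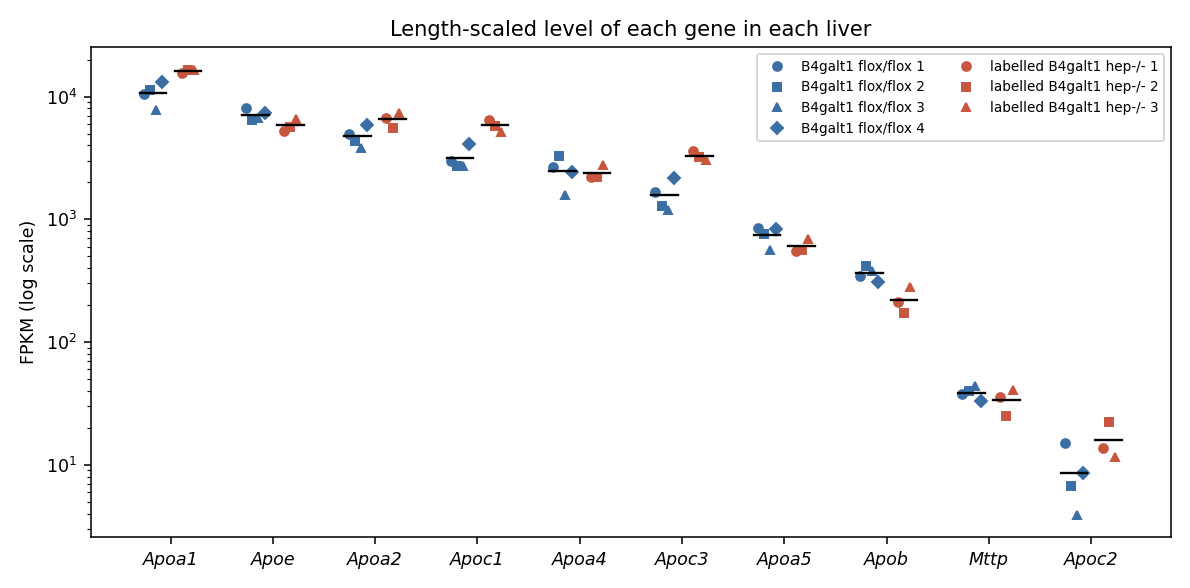
Level of each gene in each liver in FPKM, on a log axis, with genes ordered by their mean in the controls; each symbol is 1 mouse and each bar a group mean. Apoa1 is the highest in both groups (means 10751 and 16141 FPKM), and Apoc3 and Apoa4 exchange places between them.

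Ratios between genes of the same library do not depend on the scaling of libraries. Genes of a pair can differ in length, as do Apoc1 (554 bases) and Apoe (2440 bases), and the part of length in the ratios was not tested. The log2 ratio of Apoc1 to Apoe, neighbours on chromosome 7, was -1.42, -1.25, -1.29 and -0.83 in the controls and 0.31, 0.03 and -0.35 in the labelled livers. Every labelled liver lay above every control, and the mean rose by 1.19, from 0.44 to 0.996 as a ratio. The log2 ratio of Apoa5 to Apoc3, genes of the same cluster on chromosome 9 with opposite action on lipoprotein lipase, was -0.97, -0.75, -1.09 and -1.37 in the controls and -2.71, -2.51 and -2.13 in the labelled livers. Every labelled liver lay below every control, and the ratio fell from 0.48 to 0.18. The log2 ratio of Mttp to Apob was -3.19, -3.39, -3.11 and -3.23 in the controls and -2.57, -2.78 and -2.79 in the labelled livers, again without overlap, a difference of 0.52 between the means. Without labelled mouse 3 these differences were 1.37 for Apoc1 to Apoe, -1.56 for Apoa5 to Apoc3 and 0.56 for Mttp to Apob.

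For each of these 3 ratios the two-sided exact permutation test gave p = 0.0286, the smallest that 4 against 3 mice allow, and 0.0571 after adjustment over the 6 ratios examined. No adjusted value under 0.05 was therefore reached. The log2 ratio of Apoa4 to Apoa1 averaged -2.14 ± 0.30 (SD, n = 4) in the controls and -2.76 ± 0.15 (SD, n = 3) in the labelled livers, with an exact permutation p of 0.0571 and an adjusted p of 0.0857. The groups did not overlap. The ratio of Apoa1 to Apoa2, the HDL pair, differed by 0.14 on the log2 scale (exact permutation p = 0.400; 0.01 without labelled mouse 2 and 0.21 without labelled mouse 3 or control mouse 2, and 0.09 without control mouse 3) and that of Apoc2 to Apoc3 by -0.10 (exact permutation p = 0.8286; -0.39 without labelled mouse 2, -0.30 without control mouse 3, -0.21 without control mouse 4, 0.05 without labelled mouse 1, 0.04 without labelled mouse 3 and 0.19 without control mouse 1). Both overlapped between the groups, and the second had no stable sign.

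**Figure D3:**
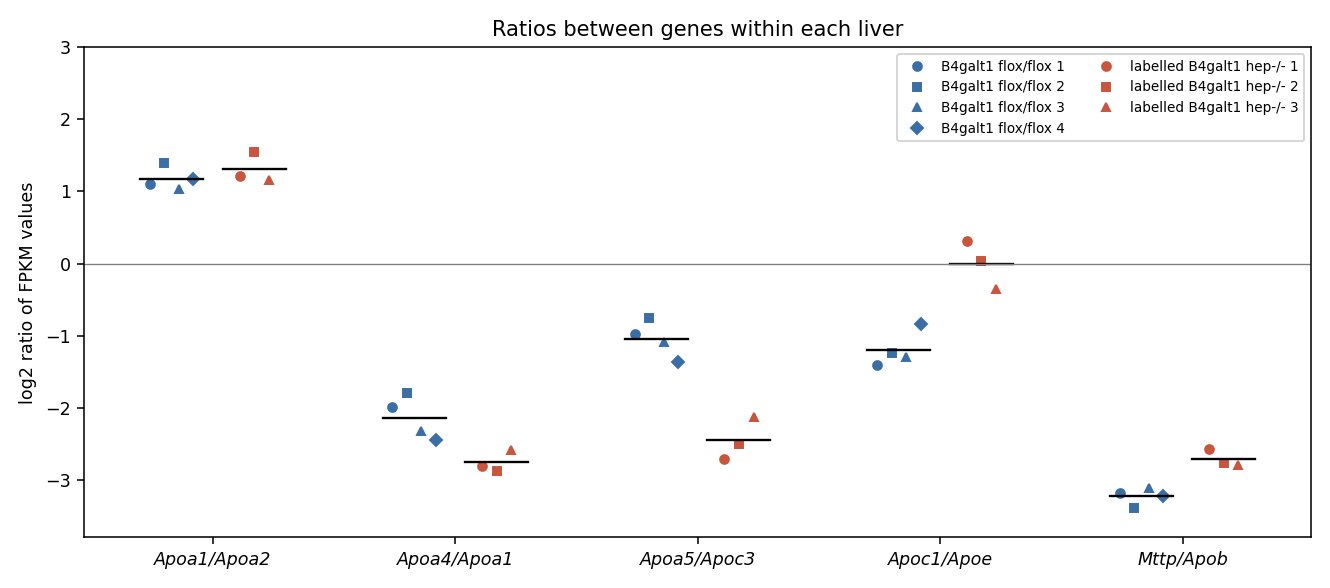
Log2 ratio of the FPKM values of gene pairs within each liver; each symbol is 1 mouse and each bar the group mean. Apoc1/Apoe and Mttp/Apob lie higher and Apoa5/Apoc3 and Apoa4/Apoa1 lie lower in all 3 labelled livers than in any of the 4 controls, whereas Apoa1/Apoa2 overlaps.

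As parts of the summed FPKM of the 10 genes, Apoc1 took 10.1 ± 1.21% (SD, n = 4) in the controls and 14.3 ± 1.95% (SD, n = 3) in the labelled livers, and Apoc3 took 5.04 ± 0.760% and 8.06 ± 0.898%. Apoa1 took 34.5 ± 2.65% and 39.5 ± 1.65%. Apoe took 23.3 ± 3.16% and 14.3 ± 1.31%, Apoa5 took 2.42 ± 0.176% and 1.47 ± 0.140%, and Apob took 1.204 ± 0.306% and 0.539 ± 0.114%. For these 6 genes the groups did not overlap, and shares of one sum are tied to each other. On CPM the groups overlapped for Apoe, Apoa5 and Apob. There 28.6% of all genes tested separated in either direction, and no such background was computed for shares of this sum. The 10 genes together held 4.66 ± 0.50% of all counts in the controls and 5.08 ± 0.373% in the labelled livers, with an exact permutation p of 0.400. This difference of 0.42 percentage points was 0.18 without control mouse 3 and 0.20 without labelled mouse 3. Of the counts outside the mitochondrially encoded genes they held 4.96 ± 0.606% and 6.32 ± 0.115%, without overlap (exact permutation p = 0.0286, the smallest possible).

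Each gene was also set against the mean log2 CPM of the 12 hepatocyte markers in the same library, which was 11.48 ± 0.16 (SD, n = 4) in the controls and 11.22 ± 0.60 (SD, n = 3) in the labelled livers. On that scale Apoc3 was higher by 1.48, Apoc1 by 1.29, Apoa1 by 0.99 and Apoa2 by 0.86, each without overlap and each with an exact permutation p of 0.0286 and an adjusted p over the 10 genes of 0.0714. Without labelled mouse 3 these differences were 1.81, 1.64, 1.24 and 1.04. The difference was 0.37 for Apoa4, 0.08 for Apoa5, 0.10 for Apoe, 0.17 for Mttp and -0.35 for Apob, and these groups overlapped. With 1 library left out these differences ranged from 0.18 (control mouse 3) to 0.54 (labelled mouse 3) for Apoa4, from -0.05 (control mouse 3) to 0.24 (labelled mouse 3) for Apoa5, from -0.04 (labelled mouse 2) to 0.27 (labelled mouse 3) for Apoe, from 0.0042 (labelled mouse 1) to 0.29 (labelled mouse 3) for Mttp and from -0.44 (labelled mouse 1) to -0.26 (labelled mouse 3) for Apob. Apoc2 differed by 1.38, with overlap. Of the 12 hepatocyte markers edgeR called 0 and DESeq2 called 1 lower, Cps1, the only one with an unadjusted edgeR p under 0.05.

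Markers of other cells were examined in the same libraries. The 6 macrophage and Kupffer cell markers with the largest called differences were Lyz2 (log2 fold change of -2.15), Adgre1 (-1.88), Gpnmb (-1.72), Vsig4 (-1.24), Marco (-1.24) and Cd68 (-1.15), of which Vsig4 kept its call in 2 and Marco in 3 of the 7 fits that left out 1 library and the other 4 in all 7. Of 8 stellate cell markers 1, Lum, was called lower (log2 fold change of -1.08), and of 6 sinusoidal endothelial markers 1, Kdr, was called lower (-1.33). Of 7 blood cell markers Alas2 was called lower (-1.24) and Hba-a1 higher (1.11). Over all genes tested 7.83% were called lower and 8% higher. With 1 library left out, Alas2 was called in 7 of 7 fits, Lum in 3, Kdr in 2 and Hba-a1 in 1, and without control mouse 3 the log2 fold change was -0.68 for Lum and -0.87 for Kdr. Of the mitochondrially encoded genes 12 of 13 were called higher, led by ATP6 (log2 fold change of 2.48), ND3 (2.35), COX2 (2.30), ND6 (2.26), ND4L (2.05) and ND4 (1.998). Neither edgeR nor DESeq2 called any of the 6 cholangiocyte markers or of the 3 enterocyte markers tested, and 0 had an unadjusted edgeR p under 0.05. Enterocytes were listed because intestine also makes apolipoproteins. The summed enterocyte list stood at 101 to 191 CPM in the controls and 66.1 to 139 CPM in the labelled livers, nearly all of it Fabp2. Lct was among the markers too low to test, and the part of other cells in the values of the 10 genes was not tested.

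Of the 10 genes, 4 lie in one cluster on chromosome 9 and 3 in another on chromosome 7, and within each cluster neighbouring genes gave different values. In the GENCODE annotation of GRCm38 the chromosome 9 genes run in the order Sik3, Apoa1, Apoc3, Apoa4, Apoa5, Zpr1 and Bud13. Their log2 fold changes were 0.27, 0.70, 1.18, 0.08, -0.18, 1.59 and 1.80 in this order. Zpr1, a zinc finger protein of cell proliferation, lies 1144 bases from Apoa5 and was called higher, at 52.2, 86.4, 45.1 and 65.0 CPM in the controls and 202, 220.2 and 138 CPM in the labelled livers (edgeR adjusted p = 0.00461). Bud13, a splicing factor subunit, follows 364 bases on and was called higher, at 5.61, 10.2, 5.22 and 5.71 CPM in the controls and 31.1, 24.7 and 14.2 CPM in the labelled livers (edgeR adjusted p = 0.00581). Both kept their call without each of the 7 libraries in turn. Apoa5, between them and Apoa4, overlapped between the groups.

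On chromosome 7 the order is Clptm1, Apoc2, Apoc4, Apoc1, Apoe, Tomm40 and Nectin2, with log2 fold changes of -0.56, 0.996, 1.07, 1.001, -0.15, -0.03 and -0.32. Apoc4, an apolipoprotein of triglyceride-rich particles outside the 10 genes, was called higher, at 331, 347, 274 and 563 CPM in the controls and 969.9, 749 and 674 CPM in the labelled livers (edgeR adjusted p = 0.0225). It lost its call without control mouse 2 (adjusted p = 0.0733 in edgeR), control mouse 3 (0.0588) or labelled mouse 1 (0.0698), and its log2 fold change was then 1.03, 0.95 and 0.90. Apoe, 3448 bases from Apoc1, was not called. Apoa2 on chromosome 1, Mttp on chromosome 3 and Apob on chromosome 12 lie apart from both clusters. Of 21 genes tested near the apolipoprotein genes, 3 were called higher and 0 lower by edgeR as by DESeq2 (4 higher and 2 lower at an unadjusted edgeR p under 0.05). Of all genes tested, 8% were called higher and 7.83% lower by edgeR, 11.3% and 10.3% by DESeq2, and 16.8% and 16.1% passed that unadjusted p, so the calls in either direction, 14.3% of these neighbours, were near the 15.8% over all genes. The third was Trmt10a, a tRNA methyltransferase whose log2 fold change was 0.83. Trmt10a shares 457 exon bases with Mttp on the opposite strand and lost its call without any 1 of the 7 libraries (log2 fold changes of 0.77 to 0.90). The strand setting of the counting is not given in the sources used here. On the opposite strand Gm10680 and Gm47528 share 34.8% and 34.9% of the exon bases of Apoa4, and Gm47544 shares 20.8% of those of Apoa5. These opposite-strand genes were not among the counted genes.

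**Figure D4:**
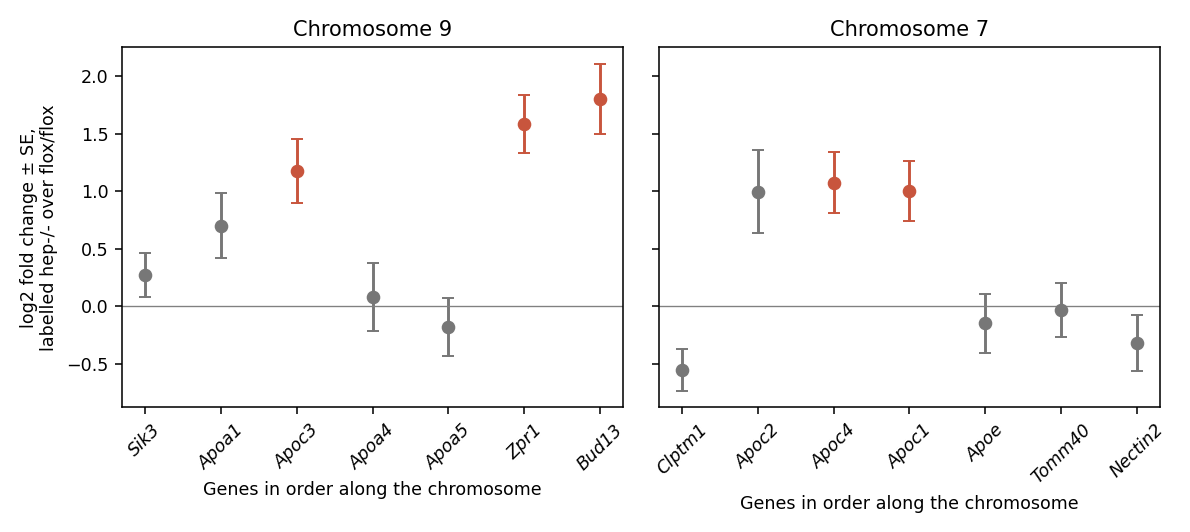
Log2 fold change with its standard error for the genes of the apolipoprotein clusters on chromosomes 9 and 7, labelled B4galt1 hep-/- over B4galt1 flox/flox, in their order along the chromosome. Red points are genes called higher (Apoc3, Zpr1 and Bud13 on chromosome 9, Apoc4 and Apoc1 on chromosome 7) and grey points are genes not called.

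Promoter sequences show the starts of these genes. A RefSeq table for GRCm38.p6 held 8 of the 10 genes, and also Apoc4. No entry was matched for Apoc1 and Apoc3. The 250 bases before the start are printed for Apoa1 and Apoc4, whose labelled livers lay above all controls, for Apoa4, an HDL gene whose groups overlapped, and for Apob, which had the lowest fold change. Sequences run 5′ to 3′ along the gene, and capitals mark matches, on either strand, to 4 motifs: CAAAGNNCA, the core of elements bound by HNF4, AGGTCA, the nuclear receptor half-site, TTGCNNAA, of the C/EBP type, and TATAAA, the TATA box.
Apoa1, chr9:46228380-46228629, plus strand: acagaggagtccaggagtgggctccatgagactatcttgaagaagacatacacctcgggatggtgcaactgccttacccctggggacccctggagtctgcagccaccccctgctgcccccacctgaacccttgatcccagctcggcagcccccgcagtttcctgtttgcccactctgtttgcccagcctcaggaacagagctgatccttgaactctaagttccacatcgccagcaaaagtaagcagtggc
Apoc4, chr7:19681461-19681710, minus strand: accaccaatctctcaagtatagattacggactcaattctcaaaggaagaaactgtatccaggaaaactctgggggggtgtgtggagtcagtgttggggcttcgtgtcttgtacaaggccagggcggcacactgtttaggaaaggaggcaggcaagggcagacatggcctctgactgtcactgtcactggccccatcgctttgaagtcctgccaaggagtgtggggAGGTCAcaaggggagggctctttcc
Apoa4, chr9:46240594-46240843, plus strand: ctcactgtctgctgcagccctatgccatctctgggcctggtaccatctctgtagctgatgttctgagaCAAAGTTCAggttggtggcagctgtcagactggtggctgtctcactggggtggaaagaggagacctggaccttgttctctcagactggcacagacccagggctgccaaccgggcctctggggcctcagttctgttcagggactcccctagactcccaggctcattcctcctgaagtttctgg
Apob, chr12:7977427-7977676, plus strand: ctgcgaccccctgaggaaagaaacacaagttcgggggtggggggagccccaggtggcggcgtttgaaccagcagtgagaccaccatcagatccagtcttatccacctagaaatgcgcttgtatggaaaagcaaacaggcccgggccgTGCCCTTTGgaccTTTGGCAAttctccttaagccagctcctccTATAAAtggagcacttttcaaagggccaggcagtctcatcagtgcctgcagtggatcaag

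Apob held the HNF4-type, the C/EBP-type and the TATA motif, Apoa4 the HNF4-type motif alone, Apoc4 a half-site, and Apoa1 none of the 4. Over the 32851 promoters in the table, 5.49% held CAAAGNNCA, 14.02% AGGTCA, 9.56% TTGCNNAA and 12.4% TATAAA in these 250 bases. The motif letters match few of the known degenerate forms, and these matches were not tested against the fold changes.

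The fold changes of the 10 genes ran nearly in the inverse order of their lengths. The lengths used in the FPKM values were 554 bases for Apoc1, 746 for Apoc3, 813 for Apoc2, 936 for Apoa2, 988 for Apoa1, 1666 for Apoa4, 2440.0 for Apoe, 2529 for Apoa5, 4759 for Mttp and 13957 for Apob. Spearman's rho between length and log2 fold change was -0.94 across the 10 genes, which share their libraries and are not independent replicates, against 0.05 across all 15179 genes tested and -0.14 across the 1284 genes with a mean of at least 100 CPM. In this highly expressed set, 146 genes shorter than 1 kb had a median log2 fold change of 0.12, those of 1 to 2 kb one of -0.19, those of 2 to 3 kb and of 3 to 5 kb one of -0.34 each, and the 225 genes longer than 5 kb one of -0.26. Over all genes tested the medians were 0.17 below 1 kb and 0.09 above 5 kb, with values between -0.05 and -0.01 in the bins between, so the median did not fall steadily with length in either set. With offsets for length and GC content in the fit, a setting chosen after seeing the data, the log2 fold change was 0.72 for Apoc1 (edgeR adjusted p = 0.0214) and 1.01 for Apoc3 (edgeR adjusted p = 0.00896). Both stayed called. The other 8 genes were not called in that fit either, with log2 fold changes of 0.87 for Apoc2, 0.64 for Apoa2, 0.61 for Apoa1, 0.05 for Apoa4, 0.04 for Mttp, -0.19 for Apoa5, -0.28 for Apoe and -0.63 for Apob. Of the genes outside the 10 that are named here, Cebpb (log2 fold change of 0.67, edgeR adjusted p = 0.0582), Pdzk1 (-0.68, 0.0532), Lum (-0.87, 0.0542), Hba-a1 (0.71, 0.127) and Scarb1 (-0.57, under the fold threshold) lost their calls in it.

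**Figure D5:**
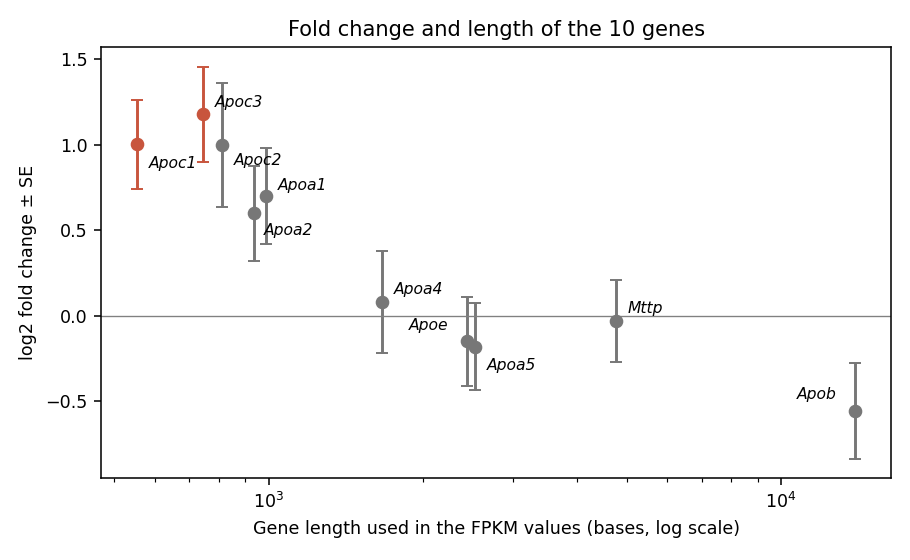
Log2 fold change with its standard error against the gene length used in the FPKM values, on a log axis, for the 10 genes. Red points are the genes called higher, and values run from 1.18 for Apoc3 (746 bases) to -0.56 for Apob (13957 bases).

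Among the other apolipoprotein genes, 10 of 12 were tested, 3 were called lower and 1, Apoc4, higher, where 7.83% of all genes tested were called lower and 8% higher. The median log2 fold change was -0.14, against 0.02 over all genes tested. Apom, which binds sphingosine-1-phosphate on HDL, stood at 106, 158, 141 and 138 CPM in the controls and at 46.9, 37.2 and 83.8 CPM in the labelled livers, a log2 fold change of -1.28 (edgeR adjusted p = 0.0140). Clu, the clusterin or apolipoprotein J gene, stood at 2007, 2034, 1815 and 1951 CPM in the controls and at 913, 899 and 1168 CPM in the labelled livers, a log2 fold change of -0.97 (edgeR adjusted p = 0.0140). Neither group overlapped the other for these genes. Apol7a was called lower too, with a log2 fold change of -1.202 (edgeR adjusted p = 0.00802). The 3 genes kept their calls without each library in turn.

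Of 17 genes tested for VLDL assembly and export, edgeR called 1 lower and 1 higher and DESeq2 5 lower and 1 higher, while 8 were lower and 1 higher at an unadjusted edgeR p under 0.05. Of all genes tested, edgeR called 7.83% lower and 8% higher and DESeq2 10.3% lower and 11.3% higher, and 16.1% were lower and 16.8% higher at that unadjusted p. In 6 of the 17 the 3 labelled livers all lay below the 4 controls, as in 15% of all genes tested, and the median log2 fold change was -0.25. The edgeR calls, 5.88% of the list in each direction, were thus no more frequent than over all genes. Fitm2, which partitions triglyceride into lipid droplets at the endoplasmic reticulum, lay between 18.9 and 34.4 CPM in the controls and between 5.91 and 16.7 CPM in the labelled livers, with a log2 fold change of -1.42 (edgeR adjusted p = 0.0245). It kept its call without control mouse 1, control mouse 4 or labelled mouse 3 and lost it without control mouse 2 (adjusted p = 0.0620 in edgeR), control mouse 3 (0.0587), labelled mouse 1 (0.0654) or labelled mouse 2 (0.0668). Vmp1, a membrane scramblase needed for lipoprotein release from the endoplasmic reticulum, lay between 101 and 140.4 CPM in the controls and between 188 and 426 CPM in the labelled livers, with a log2 fold change of 1.24 (edgeR adjusted p = 0.0141). Apobec1, which edits the Apob transcript, had a log2 fold change of 0.01, and Tm6sf2, which promotes lipidation of VLDL, one of 0.16.

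Among receptors and their partners, Scarb1, the HDL receptor, stood at 161, 151, 174 and 144 CPM in the controls and at 88.5, 90.8 and 122 CPM in the labelled livers. All 3 labelled livers lay below every control, and the log2 fold change was -0.65 (edgeR adjusted p = 0.0436). Pdzk1, the scaffold of Scarb1, stood at 42.8, 60.6, 51.8 and 53.0 CPM in the controls and at 37.9, 19.6 and 33.4 CPM in the labelled livers, again without overlap, with a log2 fold change of -0.78 (edgeR adjusted p = 0.0452). Of the fits that left out 1 library, Scarb1 kept its call only in the one without labelled mouse 3 and Pdzk1 only in those without control mouse 1 or labelled mouse 1, and the log2 fold changes in the fits that lost the call were -0.58 to -0.69 for Scarb1 and -0.55 to -0.86 for Pdzk1.

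Of 26 transcriptional regulators of apolipoprotein genes, edgeR called 3 lower and 1 higher and DESeq2 4 lower and 2 higher, and the median log2 fold change was 0.05. These calls were 15.4% of the list in edgeR and 23.1% in DESeq2, near the 15.8% and 21.5% called in either direction over all genes tested. Rxra, the partner of the PPAR and LXR receptors, stood at 383, 305, 294 and 321 CPM in the controls and at 151, 128 and 162 CPM in the labelled livers, a log2 fold change of -1.15 (edgeR adjusted p = 0.00605) that was called without each library in turn. Nr1d1, the clock repressor REV-ERBα, which represses Apoc3 in liver, stood at 97.8, 57.6, 28.0 and 67.1 CPM in the controls and at 21.4, 30.5 and 11.0 CPM in the labelled livers. The groups overlapped through control mouse 3 and labelled mouse 2, and the log2 fold change was -1.58 (edgeR adjusted p = 0.0261). The call was lost in edgeR without control mouse 2 (adjusted p = 0.0618), control mouse 4 (0.0527), labelled mouse 1 (0.0625) or labelled mouse 3 (0.0662). The time of day at which livers were taken is not given in the sources used here.

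Srebf2, the regulator of cholesterol synthesis, fell by 0.68 on the log2 scale (edgeR adjusted p = 0.0413), and its call held without control mouse 4 or labelled mouse 3 alone, with log2 fold changes of -0.61 to -0.68 in the other 5 fits that left out 1 mouse. Cebpb, a C/EBP factor of the acute-phase response, stood at 136.4, 136, 178 and 198 CPM in the controls and at 375, 246 and 309 CPM in the labelled livers, with a log2 fold change of 0.94 (edgeR adjusted p = 0.0184). It lost its call without control mouse 2 (adjusted p = 0.0676 in edgeR) or labelled mouse 1 (0.0594), with log2 fold changes of 0.86 and 0.77, and with the offsets for length and GC content. Hnf4a, the hepatocyte factor that drives most apolipoprotein promoters, had a log2 fold change of 0.12, and Creb3l3, which activates Apoa4, Apoa5 and Apoc2, one of -0.10. Both groups overlapped for each of them.

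For each of the 10 genes, the genes with the most similar profile were found among 8262 genes with a mean of at least 10 CPM, as the smallest mean absolute difference of centred log2 CPM over the 7 libraries. For Apoc3 the nearest was Apoc4 (0.11), followed by Ndufa5 (0.12) and Bcl7c (0.13). For Apoc1 they were Pam16 (0.08), Ndufa5 (0.09) and Apoc4 (0.10). For Apoa1 they were Timm9 (0.07), Fetub (0.07) and Serpina1a (0.09), and for Apoa2 Serpina1a (0.07), Timm9 (0.09) and Gas5 (0.10). For Apoa5 the nearest was Cideb, a lipid droplet protein of VLDL lipidation, at 0.04, then Polr2l and Eif2b3. For Apob they were Tmem64, Tmem135 and Trf (0.07 to 0.08), and for Apoe Cyp2d10, Serhl and Sgta (0.04 to 0.05). For Mttp they were Adh1, Pcbp1 and Rhou (0.07 to 0.08), for Apoa4 Tm6sf2, Slc23a1 and Shb (0.12 to 0.14), and for Apoc2 Pan2, Iffo1 and Gbp8 (0.13 to 0.15).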

How the data were processed

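RNA from 7 livers, 4 B4galt1 flox/flox and 3 labelled B4galt1 hep-/-, was extracted with TRIzol and made into libraries with a VAHTS Universal V6 kit. The authors deposited raw counts per gene, which had not been normalized, and FPKM values of the same genes. The submitters' processing notes name fastp, HISAT2, HTSeq, DESeq2, R 3.2.0 and GRCm39, and give no strand setting here. No sample column was left unused.

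Genes were kept by filterByExpr (minimum count 10, minimum total 15), leaving 15179 of 23347. After TMM normalization the counts were compared in edgeR 4.0.16 (R 4.3.3) by the quasi-likelihood method, with Benjamini-Hochberg adjustment over all genes tested and no covariate beside group. Calls required adjusted p < 0.05 and a log2 fold change beyond 0.58 in either direction. Standard errors came from the F statistic. Alternatives used DESeq2 1.42.0, limma 3.58.1 on log2(FPKM + 1) or log2(FPKM + 0.1), mgcv 1.9.3 for length and GC offsets (GC content found for 93.3% of genes tested) and other filters and scalings. For single values an exact permutation test, two-sided, took the absolute difference of means as its statistic (scipy 1.17.1; smallest p 0.0286 over 35 splits). A count of 3 corresponds to 0.0690 to 0.0987 CPM, a limit of counting error only. On simulated counts of 14988 genes with 200 changed and the same spread for all genes, edgeR recovered 24% of 2-fold and 98% of 4-fold changes.

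The 10 genes, the gene lists and the tests were chosen with earlier results of these data known. Named genes were all 10 members, the targeted gene, in each other list up to 6 called genes by absolute log2 fold change with Apoc4, Apobec1, Tm6sf2, Hnf4a and Creb3l3 whatever their values, and the 3 nearest profiles of each member (predicted and unnamed genes left out). Where the labels give no separate source, mice are taken as the replicates. The files use GRCm39. Gene order, overlaps and promoters are from GENCODE M21 and RefSeq annotations of GRCm38, and no coordinates were converted. Some genes of the receptor list, and the counts of that list, are not reported here. Equal replicate numbers were not taken to pair mice.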

Additional observations from a re-analysis of the deposited data

Results flagged for a closer look

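In the group of 4 B4galt1 flox/flox mice, 1 liver stood apart from the other 3 by Dixon's test in 5 of 55 quantities examined, and chance alone marks about 1 in 20 such groups. Apoc1 was 2442 CPM in control mouse 4, where the nearest other control had 1503 CPM, and the 3 labelled livers lay above both. Without control mouse 4 the log2 fold change of Apoc1 was 1.23, with an edgeR adjusted p of 0.0162. Bud13, of the chromosome 9 cluster, was 10.2 CPM in control mouse 2, where the nearest had 5.71 CPM. Control mouse 3 stood apart for 3 genes, with Tm6sf2 at 12.9 CPM (nearest 22.9), the macrophage marker Adgre1 at 71.3 CPM (nearest 25.6) and the stellate cell marker Lum at 145 CPM (nearest 71.4). On CPM this liver was also the lowest of the controls for 8 of the 9 apolipoprotein genes, and the highest for Mttp.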

How the results depend on the processing

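The count of called members, 2, became 4 with DESeq2 (Apoa1, Apoc1, Apoc2 and Apoc3), 0 with limma on log2(FPKM + 1) over all genes above 0, and 0 to 2 when 1 library was left out, with 0 without control mouse 2, control mouse 3 or labelled mouse 1. It was 3 with a filter of at least 1 count in any library (Apoc2 added). With limma on log2(FPKM + 1) of expressed genes it was 3, Apob lower among them, and 24.5% of all calls were higher against 50.5% in edgeR, and the median gene shifted by -0.12. In the pathway lists 17 of 86 genes tested were called, 26 with limma on log2(FPKM + 0.1), and 8 to 17 with 1 library left out. Over all genes 2404 were called, 3271 with DESeq2, 1330 with limma on log2(FPKM + 1) over all genes above 0, and 885 (without control mouse 2) to 2396 (without control mouse 1) with 1 library left out. The replicate block, a fit that adds the replicate number, gave 3 members (Apoc1, Apoc2 and Apoc3), 11 genes of the lists and 1267 genes in all. Nothing in the labels says that the numbers pair the mice. The deviations of equal-numbered mice correlated at -0.46, -0.13 and 0.10, and those of unequal-numbered mice at -0.35 to 0.59. Deviations within a group are tied to each other, so these values cannot decide whether mice were paired. Of the fold changes of members under the alternatives, 176 kept their direction and their side of the threshold, 7 gained and 9 lost a call, and 8 changed sign, all 8 in Apoa4 or Mttp, which were not called. Apoa4 had -0.0089 with limma on log2(FPKM + 1) of expressed genes and of all genes above 0, -0.0089 with limma on log2(FPKM + 0.1), and -0.11 to 0.26 with 1 library left out. Mttp had 0.035 with length and GC offsets, chosen after seeing the data, and -0.25 to 0.21 with 1 library left out. The share of counts in the members differed by 1.37 percentage points outside the mitochondrially encoded genes against 0.42 of all counts (0.18 to 0.56 with 1 library left out). All 128 alternative values of the ratios and marker-relative differences moved by less than 1 SD between mice, but most could not have done otherwise. Leaving out 1 mouse of 3 or 4 cannot move a difference of means that far. Ratios of counts give the same log2 differences as ratios of FPKM, because length cancels. Small moves are therefore no test of stability here. Of the 128 values 6, in Apoc2/Apoc3, Apoa5 and Apoe, changed sign. The cause of these changes was not tested. In the simulated counts 4-fold changes were mostly found and 2-fold changes mostly missed. There 200 of 14988 genes were changed, with the same spread for all genes, while 2404 genes were called in the data. The adjusted threshold is looser when more genes differ, so these rates do not describe the data.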
